A study of Rattus norvegicus with 32 samples.

Results

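The genes described here are 10 genes of the endoplasmic reticulum, its chaperones and the targets of the transcription factors XBP1 and ATF6, in C6 rat glioma cells treated with angiotensin II (Ang II). They are Hspa5, Hsp90b1, Xbp1, Herpud1, Dnajb9, Sdf2l1, Pdia4, Calr, Dnajc3 and Edem1, chosen by name with results of these same arrays already known, so that their values are given as a description and without a test. Of the 10, 9 were found under their own symbol among the 26583 gene names of the array, and Hsp90b1 was found through its transcript as Tra1, its older name. The C6 line is a clonal rat glioma line grown as a monolayer, and the measurements are single-dye Agilent expression arrays. All groups were grown to confluence in medium with 10% fetal bovine serum. The Control group received no treatment, the Ang II group received 100 nM Ang II, and the other two groups were pre-treated for 30 minutes with 10 µM of an antagonist before 100 nM Ang II. The antagonist was Losartan, which blocks the AT1 receptor, in the Ang II+Los group, and PD123319, which blocks the AT2 receptor, in the Ang II+PD123319 group. RNA was taken at 3 h and at 6 h, with 4 replicates of each group at each time, 32 arrays in all. No group received an antagonist without Ang II. The labels do not say that the replicates were separate cultures, so the standard errors and p-values below measure the spread between these arrays, which may be technical in part.

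The endoplasmic reticulum folds the proteins that enter the secretory pathway. When unfolded protein gathers in its lumen, the sensors ATF6, IRE1 and PERK signal to the nucleus. ATF6 is cut in the Golgi apparatus to release a transcription factor, IRE1 splices the Xbp1 mRNA so that it encodes an active factor, and PERK raises translation of ATF4. The 2 factors ATF6 and XBP1 raise the genes of chaperones and of the degradation machinery, several of them through a promoter motif called the endoplasmic reticulum stress element (ERSE). Hspa5 and Hsp90b1 were first described as glucose-regulated proteins, and transformed cells are known to draw on this response.

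The promoters of the 10 genes carry that motif more often than promoters in general. Whether the motif bears on how the genes varied across these arrays was not tested. Promoters were taken from RefSeq (build GRCr8), which held all 10 genes, and the 250 bases before each start were searched on both strands. ERSE was spelled as CCAAT and CCACG with 9 free bases between them, and the related ERSE-II as ATTGG and CCACG with 1 free base between them. Both hold CCACG, and no site in the 10 promoters matched both. ERSE was found in 5 of the 10 promoters (Hspa5, Hsp90b1, Xbp1, Calr and Dnajc3) against 22 of all 33469, or 0.0657%. ERSE-II was found in Herpud1 and in 14 of all 33469 promoters, or 0.0418%. A shorter element, TGACGTG, was found in Hspa5 only among the 10 and in 1.54% of all promoters. No match to ERSE or ERSE-II lay in the windows of Dnajb9, Sdf2l1, Pdia4 and Edem1. ERSE was first defined on genes of this kind, so the share among the 10 is a property of the choice. The promoter of Hspa5 is given whole, 250 bases up to the start, and the other sites with 20 bases on each side where the window allowed. Each is written 5′ to 3′ on the strand of the gene, with ERSE or ERSE-II in capitals.
Hspa5 (chr3:38452766-38453015, plus strand): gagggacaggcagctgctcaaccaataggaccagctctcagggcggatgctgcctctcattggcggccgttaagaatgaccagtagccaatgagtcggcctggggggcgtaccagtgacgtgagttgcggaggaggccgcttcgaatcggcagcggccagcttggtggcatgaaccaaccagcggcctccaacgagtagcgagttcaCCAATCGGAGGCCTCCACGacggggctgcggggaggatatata
Hsp90b1, distal site (chr7:23012431-23012489, minus strand): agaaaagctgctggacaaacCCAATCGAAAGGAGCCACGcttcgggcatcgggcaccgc
Hsp90b1, proximal site (chr7:23012327-23012385, minus strand): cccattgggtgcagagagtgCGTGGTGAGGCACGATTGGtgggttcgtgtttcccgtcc
Xbp1 (chr14:84604538-84604596, plus strand): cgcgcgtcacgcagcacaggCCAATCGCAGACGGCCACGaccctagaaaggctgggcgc
Dnajc3 (chr15:102432514-102432572, plus strand): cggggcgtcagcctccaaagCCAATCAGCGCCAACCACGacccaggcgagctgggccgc
Calr (chr19:40213117-40213173, plus strand): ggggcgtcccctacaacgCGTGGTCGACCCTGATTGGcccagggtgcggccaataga
Herpud1 (chr19:10614801-10614851, minus strand): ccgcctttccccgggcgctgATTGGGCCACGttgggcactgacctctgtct
The Hspa5 site ended 25 bases before the start and the Xbp1 site 47 bases before it. The motif lay on the strand of the gene in Hspa5, Xbp1, Dnajc3 and Herpud1, on the opposite strand in Calr, and once on each strand in Hsp90b1. A match is a run of letters and not a measured binding site.

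The 10 genes were measured by 11 probes, 1 each and 2 for Sdf2l1. The probes lay at chr3:13787739-13787798 (Hspa5), chr7:23334474-23334623 (Hsp90b1), chr14:86156913-86156972 (Xbp1), chr19:11036709-11036768 (Herpud1), chr6:63583604-63583663 (Dnajb9), chr11:85880276-85880335 and chr11:85879929-85879988 (Sdf2l1), chr4:75929978-75931486 (Pdia4), chr19:24967507-24967566 (Calr), chr15:103915093-103915152 (Dnajc3) and chr4:144380560-144380619 (Edem1) in build rn4, as the array's design gives them. The Pdia4 probe spans 1509 bases and the Hsp90b1 probe 150 bases, more than the other probes, as a probe does that crosses an intron, and the exon of each probe was not determined. Each of the 11 probes stood well above background on every one of the 32 arrays, and none was saturated. Values below are log2 signals after normalization within each time, and 1 unit is a 2-fold difference. Levels were not compared between genes or between the times, since each probe has its own brightness and each time was normalized by itself.

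The arrays came on 8 slides with 1 array of each group, and the replicate number is the slide, so that Ang II x Control could be read within each slide. The treatments took the same position on every slide, so position and treatment cannot be told apart. Of 7 markers listed for C6 and other glial cells, 5 (S100b, Vim, Nes, Cspg4 and Cd44) were well above background on all 32 arrays by at least 1 probe, Gfap on 2 arrays and Slc1a3 on none. Of the markers of other cells, Snap25 and Tubb3 (neurons), Aif1, Itgam and Cx3cr1 (microglia) and Mag (oligodendrocytes) stood well above background on each of the 32 arrays, and Ptprc, Syt1, Pecam1 and Tek on none. In these bulk samples, fewer cells of a type and less RNA per cell cannot be told apart.

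Replicate arrays of the same group stood far apart for these genes, in all groups at 3 h and most of all in Control at 6 h. At 6 h the SD over replicates was highest in Control for all 10 genes. It lay between 0.74 and 2.11 there and between 0.19 and 1.35 with Ang II. At 3 h all 10 genes were lowest on the slide of replicate 1, in the mean of its 4 arrays. Sdf2l1, a lumenal protein that works with DnaJ co-chaperones, stood at 9.83, 13.54, 13.71 and 13.44 in Control replicates 1 to 4. The same slide gave 9.89 with Ang II, 9.84 with Ang II+Los and 9.84 with Ang II+PD123319, so that its low level was shared by the treatments. Over the Control replicates at 3 h, the range of a gene was between 1.45 (Xbp1) and 3.89 (Sdf2l1). At 6 h the slides of replicates 1 and 3 were low and those of replicates 2 and 4 high, with ranges over the Control replicates between 1.53 (Xbp1) and 3.75 (Sdf2l1). Sdf2l1 was then 9.88 and 9.76 in Control replicates 1 and 3 and 13.52 and 13.43 in Control replicates 2 and 4.

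**Figure D1:**
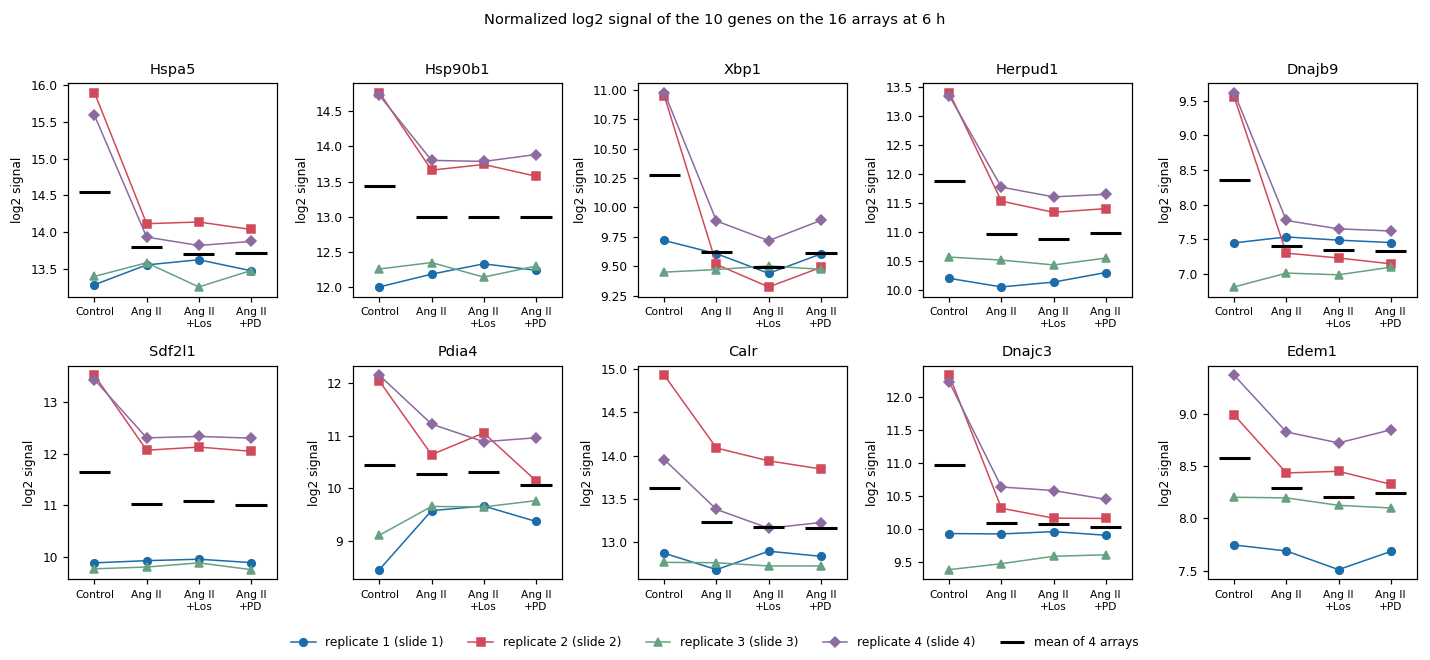
Normalized log2 signal (vertical axis) of each of the 10 genes in the 4 groups at 6 h (horizontal axis), with 1 coloured line per replicate, which is 1 slide, and a black bar at the mean of 4 arrays. The Control arrays of replicates 2 and 4 are the 2 highest of 16 for 9 of the 10 genes, and the lines of replicates 1 and 3 run nearly flat except in Pdia4.

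At 6 h the mean of all 10 genes was highest in Control, and that difference came from 2 of the 4 slides. The log2 difference Ang II x Control lay between -0.95 (Dnajb9) and -0.16 (Pdia4), with a median of -0.64 over the 10 genes against -0.0058 over all 16441 genes tested. The median of the 10 genes within a slide was 0.02, -1.44, 0.06 and -1.11 in replicates 1 to 4. All 10 genes were lower with Ang II in replicate 2 and in replicate 4, between -2.25 and -0.54, while 5 were lower in replicate 1 and 3 in replicate 3. The ranges of the Ang II and Control groups overlapped for all 10 genes. In limma, 6 of the 10 (Xbp1, Herpud1, Dnajb9, Sdf2l1, Calr and Dnajc3) were past both limits used here, an unadjusted p under 0.05 and a fold below 0.8, where 4.68% of all genes were past them in that direction and 11.5% in either. No gene of the array had an adjusted p under 0.05 in this comparison by limma, with 3532 at an unadjusted p under 0.05 and a lowest adjusted p of 0.0575. Without replicates 2 and 4, a choice made after seeing the values, the median of the 10 genes was 0.04, and 1 gene, Pdia4, was past the limits, higher with Ang II, where 7.97% of all genes were past them in either direction. Replicates 1 to 3 were scanned together and replicate 4 apart, and the median of the 10 genes was -0.45 on the former slides and -1.11 on the latter.

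Hspa5 encodes BiP, the main HSP70 chaperone of the lumen, which also holds the stress sensors inactive. Its Control values at 6 h were 13.28, 15.90, 13.40 and 15.59 in replicates 1 to 4, and with Ang II they were 13.55, 14.11, 13.58 and 13.93. The treated arrays lay close together while the Control arrays fell into a low and a high pair. The estimate was -0.75 ± 0.35 (SE), from 0.27, -1.78, 0.18 and -1.66 on the 4 slides. Hsp90b1, the HSP90 chaperone GRP94, gave 12.00, 14.77, 12.26 and 14.73 in Control and 12.18, 13.66, 12.35 and 13.80 with Ang II. Here the treated arrays of replicates 2 and 4 also stood above those of replicates 1 and 3. The estimate for Hsp90b1 was -0.44 ± 0.22.

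Among the co-chaperones of BiP, Dnajb9 and Dnajc3 showed the largest single-slide differences of the 10 genes at 6 h. Dnajb9 (ERdj4), a DnaJ protein that directs clients to degradation and dampens IRE1, stood at 7.45, 9.55, 6.81 and 9.62 in Control and 7.53, 7.30, 7.01 and 7.77 with Ang II. Its slide differences were 0.08, -2.25, 0.20 and -1.84, and the estimate was -0.95 ± 0.41. Dnajc3 (P58IPK), a co-chaperone known to inhibit PERK, stood at 9.93, 12.34, 9.38 and 12.24 in Control and 9.92, 10.31, 9.47 and 10.64 with Ang II. For Dnajb9 the Ang II arrays of replicates 2 and 4 lay near those of replicates 1 and 3, and the Control arrays did not. For Dnajc3 the Ang II arrays of replicates 2 and 4 still stood above those of replicates 1 and 3, by less than in Control. The estimate for Dnajc3 was -0.88 ± 0.37. Sdf2l1 gave 9.92, 12.07, 9.80 and 12.31 with Ang II, so that its high and low slides stayed apart under treatment, and its estimate was -0.63 ± 0.25. The 2 probes of Sdf2l1 gave -0.61 and -0.65 on their own.

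Herpud1, a membrane protein that organizes the retrotranslocation of proteins for degradation, stood at 10.20, 13.40, 10.56 and 13.35 in Control and 10.05, 11.53, 10.51 and 11.77 with Ang II at 6 h. It was lower on all 4 slides, with differences of -0.15, -1.87, -0.05 and -1.58 and an estimate of -0.91 ± 0.33. Edem1, a lectin that hands misfolded glycoproteins to degradation, was also lower on all 4 slides, with 7.75, 8.99, 8.20 and 9.37 in Control and 7.69, 8.43, 8.20 and 8.83 with Ang II. The Edem1 estimate of -0.29 ± 0.10 did not reach the fold limit. Xbp1 itself stood at 9.72, 10.95, 9.45 and 10.98 in Control and 9.61, 9.52, 9.47 and 9.88 with Ang II. Where its probe lies against the spliced stretch was not determined, so spliced and unspliced mRNA were not told apart. The 4 treated values of Xbp1 all lay close to the 2 low Control values, and the estimate was -0.65 ± 0.24.

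Calr encodes calreticulin, the calcium-binding lectin chaperone of the lumen. Calr gave 12.88, 14.93, 12.77 and 13.95 in Control and 12.69, 14.09, 12.77 and 13.38 with Ang II, lower on all 4 slides, with an estimate of -0.40 ± 0.16. Pdia4 (ERp72), a disulphide isomerase, was higher with Ang II on 2 slides at 6 h. Its Control values were 8.45, 12.04, 9.10 and 12.15 and its Ang II values 9.57, 10.64, 9.65 and 11.22, so that the slide differences were 1.12, -1.40, 0.55 and -0.93. The Pdia4 estimate of -0.16 ± 0.41 was smaller than its standard error.

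At 3 h the 10 genes were less uniform. Control had the highest mean of the 4 groups for 7 genes and Ang II for Pdia4, Dnajc3 and Edem1, and the groups overlapped for all 10. The Ang II x Control estimates ran from -1.82 (Herpud1) to 0.08 (Dnajc3), with a median of -0.23 against 0.0022 over all 13628 genes tested, and the slide medians were 0.04, -0.28, -0.20 and -0.47. Herpud1, Dnajb9 and Sdf2l1 were past both limits, 3 of 10, where 5.98% of all genes were past them in that direction and 11.0% in either. By limma 0 genes of the array had an adjusted p under 0.05, with 1733 at an unadjusted p under 0.05. Without replicates 2 and 4 the median was -0.07 and 0 of the 10 genes were past the limits, where 2.41% of all genes were. Without replicate 4 alone 0 of the 10 were past them, where 5.65% of all genes were, and without replicate 2 alone 1, Dnajb9, where 5.53% were. The median of the 10 genes was -0.11 on the slides of replicates 1 and 2, which were scanned together, and -0.36 on those of replicates 3 and 4.

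Herpud1 gave the widest step of the 10 genes at 3 h. It stood at 9.75, 13.19, 13.24 and 12.90 in Control and 9.88, 9.64, 13.11 and 9.17 with Ang II. In replicates 2 and 4 the differences were -3.55 and -3.73, and replicates 1 and 3 differed by 0.13 and -0.13. The estimate of -1.82 ± 0.69 is the mean of 2 slides near 0 and 2 slides far below it. Dnajb9 had the same form, with 7.06, 9.48, 9.75 and 8.95 in Control and 6.98, 7.79, 9.47 and 7.24 with Ang II, and an estimate of -0.94 ± 0.30. Xbp1 was lower in replicates 2 and 4, with differences of -0.64 and -1.13 and an estimate of -0.47 ± 0.31 that missed the limits. Sdf2l1 was lower in replicates 2 to 4, with slide differences of 0.07, -0.69, -0.37 and -0.43 and an estimate of -0.36 ± 0.12.

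Among the lumenal chaperones, Hspa5 stood at 13.18, 15.82, 15.94 and 15.35 in Control at 3 h and 13.07, 15.73, 15.45 and 15.07 with Ang II, lower on all 4 slides, with an estimate of -0.24 ± 0.14. Hsp90b1 (-0.21 ± 0.31) and Calr (-0.20 ± 0.46) were below 0 by less than their standard errors. The estimates of Edem1 (0.06 ± 0.11), Pdia4 (0.05 ± 0.46) and Dnajc3 (0.08 ± 0.25) lay on the other side of 0, also by less than their standard errors. Pdia4 was higher in replicate 2 (0.90) and lower in replicate 4 (-0.58), and in replicates 1 and 3 the differences were -0.11 and -0.02. Dnajc3 was higher in replicates 2 and 3 (0.61 and 0.52) and lower in replicates 1 and 4 (-0.31 and -0.50), so that it had no common direction.

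**Figure D2:**
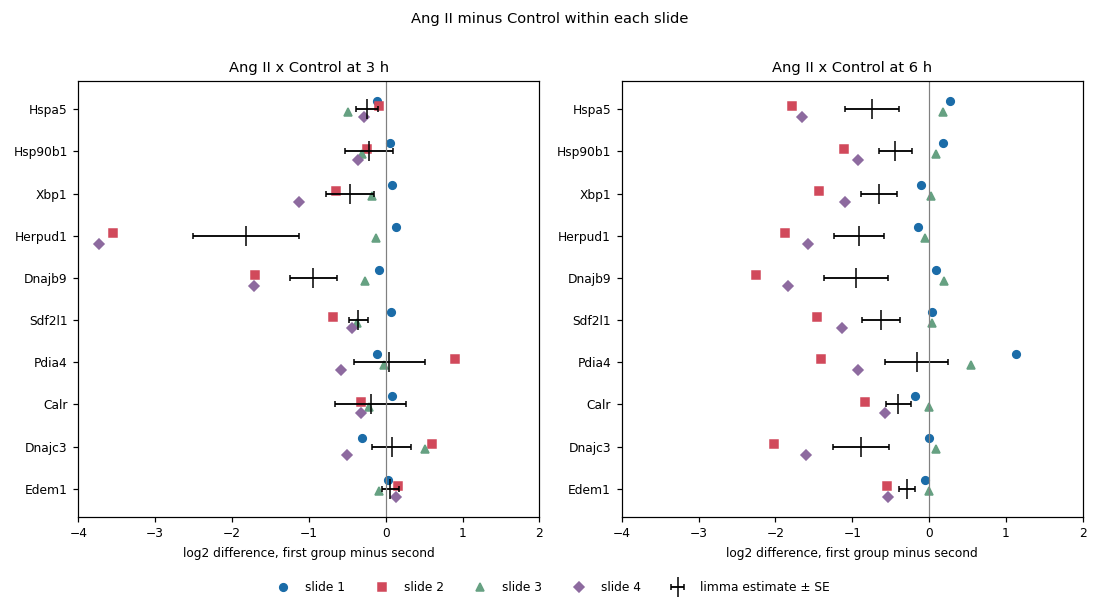
Log2 difference Ang II minus Control (horizontal axis) of each of the 10 genes (vertical axis) at 3 h (left) and 6 h (right), with 1 coloured symbol per slide and a black tick with bars for the limma estimate and its SE. At 6 h the symbols of slides 2 and 4 lie below 0 for all 10 genes, between -2.25 and -0.54, and those of slides 1 and 3 gather near 0 except for Pdia4, and at 3 h Herpud1 shows the widest split.

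The comparison Ang II+Los x Ang II asks which genes depended on the AT1 receptor, and at 6 h the 10 genes stayed close to their Ang II level. The estimates lay between -0.12 (Xbp1) and 0.05 (Sdf2l1), with a median of -0.06, and the single slides between -0.34 and 0.41, both of them Pdia4. None of the 10 was past the limits, where 0.900% of all genes were. Sdf2l1 was higher with Losartan on all 4 slides by 0.03 to 0.08, and Dnajb9 lower on all 4 by -0.02 to -0.12. The SD of the slide differences was 0.026 for Sdf2l1 and 0.041 for Dnajb9, the lowest of the 10, and 0.31 for Pdia4, the highest. The standard errors of the fit, in which all 4 groups share 1 estimate of the spread, Control included, were wider, from 0.10 (Edem1) to 0.41 (Dnajb9).

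At 3 h the same comparison turned on the Losartan array of replicate 2. Calr was 11.51, 13.29, 13.49 and 13.66 with Ang II and 10.18, 10.39, 13.71 and 13.76 with Ang II+Los. Its differences were -1.33 and -2.90 in replicates 1 and 2 and 0.22 and 0.10 in replicates 3 and 4, with an estimate of -0.98 ± 0.46. Pdia4 was 12.24 with Ang II and 8.81 with Ang II+Los in replicate 2, a difference of -3.44, and within 0.28 of its Ang II level on the other 3 slides. Hsp90b1 and Dnajc3 followed in replicate 2, at -1.97 and -1.50, while Sdf2l1 and Herpud1 did not, at -0.06 and 0.18. On that slide 2439 of 13624 genes differed by more than 2-fold between Ang II+Los and Ang II, against 24 to 829 on the other 3 slides, so that the pair stood apart over the whole array. None of the 10 genes was past the limits in the 4 slides together, where 10.1% of all genes were, and the estimates lay between -0.98 and 0.13 with a median of -0.06. Without replicate 2 the estimates were -0.34 for Calr, 0.10 for Pdia4, -0.02 for Hsp90b1 and 0.03 for Dnajc3. None of the 10 was past the limits without that replicate, where 1.62% of all genes were. The replicates 1 and 2 were scanned together, and on their slides alone 3 of the 10 genes were past them, where 17.9% of all genes were, with none on the slides of replicates 3 and 4, where 4.26% were.

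**Figure D3:**
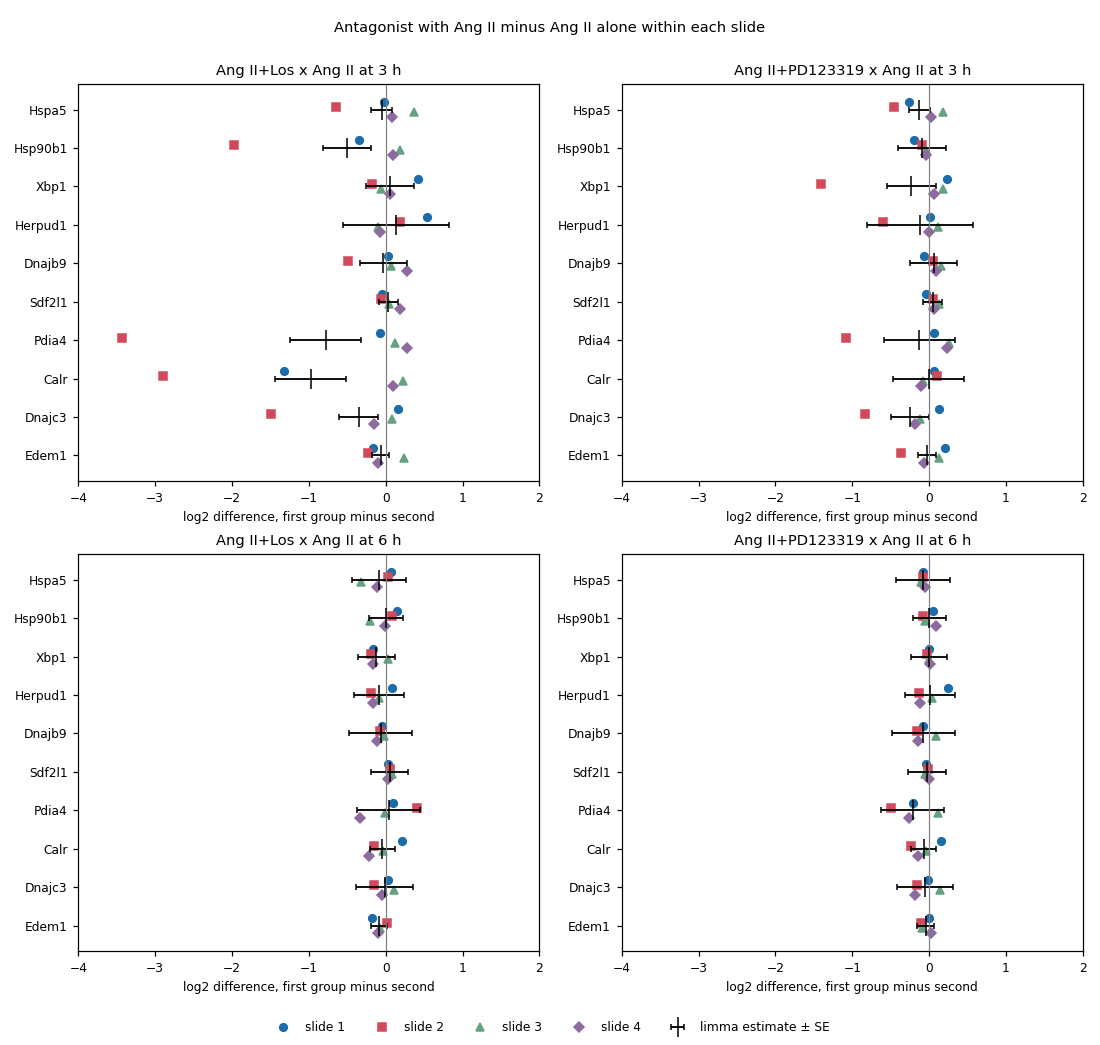
Log2 difference of each of the 10 genes (vertical axis) between an antagonist with Ang II and Ang II alone (horizontal axis), for Losartan (left) and PD123319 (right) at 3 h (top) and 6 h (bottom), with 1 coloured symbol per slide and a black tick with bars for the limma estimate and its SE. At 6 h all symbols lie between -0.50 and 0.41, and at 3 h slide 2 lies far below 0 for Pdia4, Calr, Hsp90b1 and Dnajc3 with Losartan.

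The comparison Ang II+PD123319 x Ang II asks the same of the AT2 receptor. At 6 h the estimates of the 10 genes lay between -0.21 (Pdia4) and 0.0074 (Herpud1), with a median of -0.05, and none was past the limits, where 3.80% of all genes were. Hspa5 and Sdf2l1 were lower on all 4 slides, with differences of -0.06 to -0.11 and of -0.01 to -0.05, and the SD of these differences was 0.019 for Hspa5 and 0.020 for Sdf2l1. At 3 h the estimates lay between -0.25 (Dnajc3) and 0.06 (Dnajb9), with a median of -0.10, and none was past the limits, where 2.64% of all genes were. Replicate 2 again gave the lowest single values, -1.40 for Xbp1 and -1.08 for Pdia4, and the other slides of those genes lay between 0.06 and 0.26. The standard errors at 3 h ran from 0.11 (Edem1) to 0.69 (Herpud1), and a p that misses the limit does not show that the groups are alike.

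The 3 groups that received Ang II were read against the same 4 Control arrays at each time, so their comparisons with Control share those arrays and are not independent. At 6 h the median of the 10 genes was -0.64 for Ang II, -0.68 for Ang II+Los and -0.66 for Ang II+PD123319, each against Control. The slide medians of the last were 0.0049, -1.67, 0.03 and -1.16, and those with Losartan 0.03, -1.51, 0.0056 and -1.26. Of the 10 genes, 6, 8 and 8 were past the limits in these comparisons, where 11.5%, 11.4% and 13.5% of all genes were. By limma 0, 224 and 227 genes of the array had an adjusted p under 0.05 in them. The means of the 3 Ang II groups spanned between 0.0012 (Hsp90b1) and 0.25 (Pdia4) at 6 h. At 3 h the medians were -0.23, -0.57 and -0.31, and the 3 group means spanned between 0.05 (Sdf2l1) and 0.98 (Calr), the latter with the 2 low Losartan arrays.

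The 10 genes kept together across arrays more closely at 6 h than at 3 h. After the mean of each slide was taken off, the 45 pairs of genes had a Pearson r over the 16 arrays between 0.677 and 0.998 with a median of 0.957 at 6 h, and between -0.07 and 0.949 with a median of 0.498 at 3 h. At 6 h Dnajb9 was closest to the mean of the others (r of 0.996) and Pdia4 the farthest (0.794), and at 3 h Dnajb9 was again the closest (0.873) and Edem1 the farthest (0.167). The arrays share slides and normalization, so these correlations are descriptions. Among 9411 named genes well above background on all 16 arrays at 6 h, those most like the mean of the 10 were Mat2b, a subunit regulating methionine adenosyltransferase, Casp12, a caspase of the reticulum membrane, Manf, a secreted factor held in the lumen, Rbm15b, an RNA-binding protein, and Sels, a selenoprotein of the degradation complex, with r from 0.993 to 0.996. Their Ang II x Control differences were -1.47 (Mat2b), -1.40 (Casp12), -1.81 (Manf), -1.80 (Rbm15b) and -1.40 (Sels) in replicate 2, and between 0.0071 (Mat2b) and 0.28 (Manf) in replicate 1. At 3 h the most alike of 7719 genes were Slc3a2, an amino acid transporter chain, Nek9, Tp53i13, Tmem175 and Mthfd2, a mitochondrial folate enzyme, with r from 0.959 to 0.972. In replicates 2 and 4 at 3 h the differences were -0.95 and -1.03 for Slc3a2 and -1.11 and -1.36 for Mthfd2.

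Of 131 other genes of the endoplasmic reticulum on the array, listed by role, 126 were tested at 6 h and 22 were past the limits in Ang II x Control, all of them lower with Ang II, where 4.68% of all genes were past them in that direction. Their median was -0.15 and 105 of 126 were below 0, with slide medians of 0.03, -0.39, 0.04 and -0.34, the same slides as the 10 genes and a smaller size. The lists were also drawn up with results of these arrays known. Among the sensors 3 of 12 were past the limits, led by Atf6 itself (-0.89 ± 0.28, limma adjusted p = 0.127) and Creb3l1, a relative of Atf6 (-0.56 ± 0.16, limma adjusted p = 0.115). Among 20 other lumenal chaperones 3 were past them, among them Sil1, the nucleotide exchange factor of BiP (-0.49 ± 0.13), and Fkbp2, a prolyl isomerase (-0.33 ± 0.12). Creld2, whose promoter also held ERSE, had the widest difference of that list at -1.16 ± 0.47, from 0.22, -2.41, -0.04 and -2.42, and is named after its values were seen. Over all genes outside the 10 whose promoter held ERSE or ERSE-II, 17 were tested at 6 h, with 4 lower and 1 higher past the limits and a median of -0.09, against 303 lower and 571 higher of 7492 genes whose promoter held neither and a median of 0.0018. The 17 genes had slide medians of 0.0037, -0.08, -0.0021 and -0.30 in replicates 1 to 4. At 3 h 14 such genes were tested, with 1 lower and 0 higher and a median of -0.05, against 313 lower and 423 higher of 6475 and a median of 0.04. Canx, Creld2, Derl3 and Hyou1 hold ERSE or ERSE-II and are also in the lists of endoplasmic reticulum genes, so these sets overlap. Disulphide exchange had 3 of 11, led by Txndc11 (-0.55 ± 0.15), and degradation 5 of 24, led among genes of 1 direction by Derl1, a channel subunit (-0.52 ± 0.17), and the ubiquitin-conjugating enzyme Ube2g2 (-0.37 ± 0.09). Translocation and core glycosylation had 4 of 33 and vesicle transport 4 of 26, among them Surf4, a cargo receptor (-0.37 ± 0.14). Without replicates 2 and 4 the count of 22 became 11, and all 11 were then higher with Ang II, where 7.97% of all genes were past the limits.

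At 3 h 8 of 123 of these genes were past the limits, 5 lower and 3 higher, where 11.0% of all genes were past them, 5.98% lower and 5.04% higher, a higher share than among these genes. The lower ones were Eif2ak3, which encodes PERK (-0.49 ± 0.17), Creb3l1 (-0.44 ± 0.18), Creb3l2 (-0.43 ± 0.14), Creb3 (-0.33 ± 0.11) and Syvn1, the ubiquitin ligase HRD1 (-0.81 ± 0.23, limma adjusted p = 0.322). The higher ones were Sec13, a coat protein of transport vesicles (0.33 ± 0.12), Ube2j2 (0.32 ± 0.14) and Srp54 of the signal recognition particle (0.31 ± 0.13). Creb3 is named after its values were seen. Their list medians lay between -0.30 for the sensors and 0.06 for vesicle transport. In Ang II+Los x Ang II 7 of 123 were past the limits at 3 h, where 10.1% of all genes were, among them Erp44 (0.34 ± 0.15), Kdelr3 (-0.33 ± 0.11) and Copg1 (-0.43 ± 0.20), and 0 of 126 at 6 h, where 0.900% were. In Ang II+PD123319 x Ang II 1 of 123 was past them at 3 h, Creb3l2 (0.38 ± 0.14), and 0 of 126 at 6 h, where 2.64% and 3.80% of all genes were. By limma 0 genes of the array had an adjusted p under 0.05 in these 4 comparisons, with 1489 and 407 at an unadjusted p under 0.05 at 3 h and 327 and 1048 at 6 h.

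**Figure D4:**
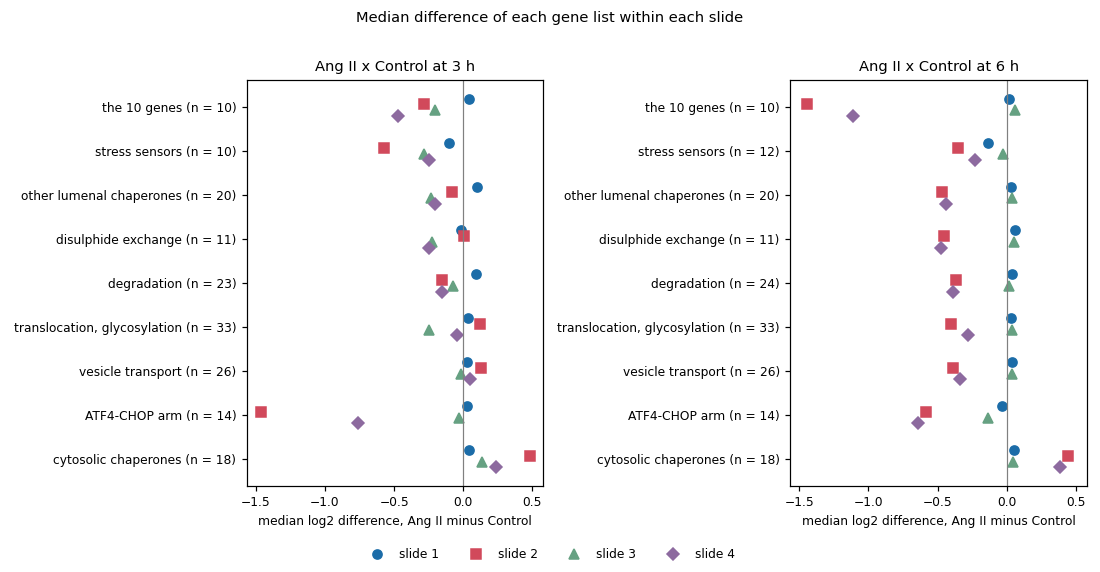
Median log2 difference Ang II minus Control (horizontal axis) of the 10 genes and of 8 other gene lists (vertical axis, with the number tested) within each slide, at 3 h (left) and 6 h (right). At 6 h the 10 genes and the 6 other lists of the endoplasmic reticulum are below 0 on slides 2 and 4 and the cytosolic chaperones above 0 there, and slides 1 and 3 lie near 0 for all lists.

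A pair of further lists of stress genes was set beside the 10 genes. Of 14 tested genes of the ATF4-CHOP arm, which PERK can raise through ATF4, 8 were past the limits and lower with Ang II at each time, where 5.98% of all genes were past them in that direction at 3 h and 4.68% at 6 h. That arm had slide medians of 0.03, -1.47, -0.03 and -0.76 at 3 h, wider than those of the 10 genes at the same time. Ddit3 (CHOP) had differences of -4.80 and -4.95 in replicates 2 and 4 at 3 h and of -2.23 and -1.92 at 6 h, and Ppp1r15a, which restores translation, had an estimate of -1.34 ± 0.42 at 3 h. Cytosolic chaperones went the other way, with 8 of 18 higher and 1 lower at 3 h and 8 of 18 higher at 6 h, where 5.04% and 6.78% of all genes were higher past the limits. Hsph1, a cytosolic exchange factor, was higher on all 4 slides at 6 h (0.83, 1.42, 0.42 and 1.48), with an estimate of 1.04 ± 0.18. Its adjusted p of 0.0575 by limma equalled the lowest of the array in Ang II x Control at 6 h. The Benjamini-Hochberg adjustment gives that value also to genes with a smaller unadjusted p, so it does not rank Hsph1 first. Bag3 (0.66 ± 0.18) and Hspa8 (0.74 ± 0.24) were past the limits at 3 h. Without replicates 2 and 4 the arm had 0 of 14 past the limits at both times, and the cytosolic chaperones 0 of 18 at 3 h and 2 of 18, Hsph1 and Dnajb4, at 6 h, where 2.41% of all genes at 3 h and 7.97% at 6 h were past them. Without replicate 2 alone the arm had 1 of 14 past them at 3 h and 2 at 6 h, where 5.53% and 8.33% of all genes were. Without replicate 4 alone the arm had 0 and 2, where 5.65% and 7.44% of all genes were. The cytosolic chaperones had 3 and 6 of 18 without replicate 2, and 4 and 5 without replicate 4, beside those same shares of all genes. Of this list, the genes past the limits with replicate 2 or replicate 4 left out alone were all higher, except Hsf1, lower at 3 h without replicate 4.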

How the data were processed

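Single-dye arrays of C6 cells were read from the deposited scanner files, and the groups and replicate numbers come from the labels. As deposited, each intensity is a spot signal that the authors background-subtracted with Agilent Feature Extraction 9.5.3.1, and the series table holds its log2 without scaling between arrays, as 100% of 561803 deposited log2 values compared showed within 1e-06, with 38.2% blank. Outlier spots were left out, spots of a probe averaged, and the 16 arrays of each time brought together by cyclic loess (3 iterations, span 0.7), the local regression that the study's methods name. Dim spots at 3 h, which carry no surrogate value, were set to the error of their signal. Probes with more than 2 gaps, or not well above background on all 4 arrays of any group, were left out, and the probes of a gene averaged. On each array, 55.9% to 64.7% of spots at 3 h and 64.2% to 79.8% at 6 h were well above background, and the median standard error of a gene was 0.16 and 0.10 (log2). The number of arrays limits the precision.

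Groups were compared with limma 3.58.1 in R 4.3.3, with version 1.17.8 of data.table, with the slide as a block and p-values adjusted by Benjamini and Hochberg over all genes. The series record calls the tests paired, and slides carry the pairing. Same-numbered arrays deviated together, with r from 0.144 to 0.916 at 3 h and 0.548 to 0.825 at 6 h over 24 pairs each. A gene was called past the limits at an unadjusted p under 0.05 with a fold above 1.2 or below 0.8. The method was tested on simulated data in which a gene had the same residual spread in every group. That test therefore does not cover a wider spread in Control, as the 10 genes had at 6 h. The 10 genes, the gene lists and the tests were chosen with earlier results of these data known. The genes named are the 10, per list and comparison the 3 with the largest change past the limits in 1 direction on all slides, and per time the 5 most like the mean of the 10. Of 176 listed names, 153 were found as given. Promoters come from RefSeq (GRCr8). As alternatives, the block was left out, the methods' paired t-test was run, arrays were brought together by quantiles or by their 75th percentile, background was taken off by normexp (offset of 50), the filter was dropped or made stricter, and each Sdf2l1 probe, the deposited values, single scans and sets without 1 replicate were used. Figures were drawn with Python 3.11.15, pandas 2.3.3 and matplotlib 3.10.9. The labels and the methods give different amounts of RNA for labelling.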

Additional observations from a re-analysis of the deposited data

Results flagged for a closer look

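Within a group of 4 arrays, a replicate was picked out where its gap to the nearest other array, as a share of the group's whole range, was above the critical value of Dixon's test for 4 values. Of 80 groups of the 10 genes, 14 were picked out, all of them at 3 h and all for the low value of replicate 1, where chance picks out about 1 in 20 groups. The genes are not independent and the 4 arrays of replicate 1 share a slide. Sdf2l1 was picked out in all 4 groups, with gaps of 0.928 of the range in Control, 0.858 in Ang II, 0.832 in Ang II+Los and 0.841 in Ang II+PD123319. Hsp90b1 was picked out in Control (0.902), Ang II (0.862) and Ang II+PD123319 (0.889). Calr was picked out in Control (0.854) and Ang II+PD123319 (0.915), and Edem1 in Control (0.877) and Ang II (0.888). The others were Xbp1 in Control (0.886), Herpud1 in Control (0.903) and Dnajc3 in Ang II (0.847). The cause was not tested.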

How the results depend on the processing

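The median of the 10 genes in Ang II x Control kept its sign at 3 h under all alternatives run, from -0.46 to -0.07, and at 6 h under all but one. It moved beyond the spread between slides, the SD of the slide medians, once, to -0.46 at 3 h with the deposited values, where 6 of the 10 genes had no blank. At 6 h the slide medians ran from -1.44 to 0.06, so wide that even the change of sign stayed within that spread. Leaving out 1 replicate gave -0.30 to -0.19 at 3 h and -0.86 to -0.37 at 6 h, and leaving out replicates 2 and 4, chosen after seeing the data, gave -0.07 and 0.04. Without both, 3 genes past the limits at 6 h changed sign (Dnajb9 at 0.14, Sdf2l1 at 0.039 and Dnajc3 at 0.042). The count of the 10 past the limits at 6 h was 6. It was 0 without replicate 2 or replicate 4, where 8.33% and 7.44% of all genes were past them, and 9 without replicate 1 or replicate 3, where 13.1% and 15.3% were. At 3 h it was 3, and 1 without replicate 2 and 0 without replicate 4 (5.53% and 5.65% of all genes). It was 0 on the slides of scan 1 (4.84%) and 5 on those of scan 2 (9.11%) at 3 h, and 0 on those of scan 3 (7.44%) at 6 h.

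The count of other endoplasmic reticulum genes past the limits was 8, 7 and 1 at 3 h and 22, 0 and 0 at 6 h, for Ang II against Control, then Losartan and then PD123319 against Ang II alone. These are counts of 123 genes at 3 h and 126 at 6 h. In the same order, 11.0%, 10.1% and 2.64% of all genes were past the limits at 3 h. At 6 h the shares were 11.5%, 0.900% and 3.80%. Without the replicate block, which leaves the slide pairing out, it was 1, 1 and 0 at 3 h and 8 for Ang II at 6 h, and of the 10 genes 0 and 1 were past the limits at 3 h and 6 h (2.61% and 3.21% of all genes). With 1 replicate left out the ranges were 2 to 12, 2 to 11 and 0 to 3 at 3 h, and 4 to 39, 0 to 1 and 0 to 0 at 6 h. The count over the whole array moved as well. Of all 13628 genes at 3 h, 754 to 1774, 221 to 1831 and 40 to 722 were then past the limits. Of all 16441 genes at 6 h, 1223 to 2512, 114 to 423 and 333 to 1039 were. Without replicate 2 the count of other endoplasmic reticulum genes for Ang II was 2 and 7 at the 2 times (5.53% and 8.33% of all genes). Without replicate 4 it was 4 at 6 h (7.44%). Without both replicates it was 0, 0 and 0 at 3 h (2.41%, 1.09% and 0.426% of all genes). At 6 h it was then 11, 1 and 0 (7.97%, 1.44% and 1.96%). Scaling to the 75th percentile gave 11 for Losartan at 3 h (10.5% of all genes). No filter gave 2 for PD123319 at 3 h (3.15%) and 1 in each antagonist comparison at 6 h (1.81% and 4.80%). The slides of scan 1 alone gave 2, 20 and 0, where 4.84%, 17.9% and 0.249% of all genes were past the limits. Those of scan 2 gave 3 in each antagonist comparison, where 4.26% of all genes were in each. Those of scan 3 gave 4 for Ang II at 6 h, where 7.44% were. The methods' paired t-test gave 4, 0 and 0 at 3 h and 1 for Ang II at 6 h. Of all genes, 658, 136 and 149 were past the limits by it at 3 h and 730 for Ang II at 6 h. Over the whole array that test had 1202 and 1911 genes at p under 0.05 for Ang II, at the 2 times in turn, and 0 after Benjamini-Hochberg adjustment, and none of the 10 genes was past the limits by it. The slide of scan 4 alone left no test. All genes past the limits in Ang II x Control ran from 329 to 2000 at 3 h and from 528 to 2512 at 6 h over the alternatives. The cause of these shifts was not tested.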
